A study of Mus musculus with 15 samples.

Results

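The transcripts described here are the more abundant long intergenic non-coding RNAs (lincRNAs) of macrophages sorted from a mouse glioma. A gene was included when the deposited table gave it the lincRNA biotype, placed it on chromosomes 1 to 19 and held at least 1000 counts for it summed over 15 libraries. This left 51 of 5125 autosomal lincRNA genes, of which 1577 had any count, in a table of 55486 genes. The members were chosen by their summed counts, so their overall abundance is a description and not a result. The 3 members just inside the limit were AW011738 (1037 counts), 4933424M12Rik (1034) and Gm10605 (1022), and the 3 genes just outside it were Dbpht2 (968), 2210408F21Rik (952) and A830008E24Rik (934). In 33 of the 51 members every group carried its share of the limit, meaning a mean count per library of at least 1000 divided by 15. In 7 members 3 groups did, and in 11 only 2 groups did, among them AI662270, Gm31718, Gm28875, 2310001H17Rik, Gm10790 and Gm26520. For these 11 the entry limit was met through the groups in which they were high.

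All libraries came from brain tumours of 1 mouse model, labelled Ink4a/ArfKO, PDGFB: PDGFB was expressed in Nestin-positive progenitor cells of animals lacking Ink4a/Arf, and every group shared this background. The cells were sorted by flow cytometry into 4 groups: microglia without lipid load (4 libraries), lipid-laden microglia (4), monocyte-derived macrophages without lipid load (MDM, 4) and lipid-laden MDM (3). The sources used here do not name the stain or gate that defined lipid load, nor the age of the mice. Libraries carry the numbers 224, 221, 431 and 718, and a lipid-laden MDM library numbered 431 was not analysed here. Values per library are listed below in that order of numbers, and for lipid-laden MDM in the order 224, 221 and 718. Whether a number marks 1 animal is not stated, so p-values measure the spread between these libraries only.

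A lincRNA is a transcript from its own locus between protein-coding genes that is not known to be translated. Many lincRNAs are spliced and polyadenylated much like a messenger RNA, although Malat1 and Neat1 each have a single exonic segment. Some act as RNAs in the nucleus, such as Malat1, a component of nuclear speckles, and Neat1, the scaffold of paraspeckles. Others are hosts whose introns or exons are processed into small nucleolar RNAs (snoRNAs), which guide chemical modification of ribosomal RNA, or into microRNAs. In macrophages, lincRNA loci include the precursor of miR-155, a regulator of inflammatory activation, and Morrbid, which controls the lifespan of short-lived myeloid cells.

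Total counts per library lay between 7798952 and 11419338. Levels are given in CPM, the counts scaled to a common library total after TMM adjustment, and as mean ± SD over libraries. Microglia markers summed to 10536 to 15824 CPM in microglia without lipid load, 6678 to 16512 in lipid-laden microglia, 2275 to 3481 in MDM and 6696 to 8675 in lipid-laden MDM. MDM markers summed to 1204 to 2117, 1671 to 2516, 6837 to 7405 and 5531 to 6733 CPM in the same order. Of the 10 microglia markers, 9 were higher in lipid-laden than in other MDM. Of the 10 dendritic cell markers, 6 were lower there: they summed to 1232 to 2758 CPM in MDM against 187 to 248 in lipid-laden MDM, and stood at 33.1 to 58.6 and 21.7 to 33.6 in the microglia without and with lipid load. Markers of glioma and progenitor cells summed to 16.3 to 29.7 CPM in MDM and to 121 to 193 in lipid-laden MDM, 181 to 625 in microglia and 259 to 677 in lipid-laden microglia. T and NK cell markers summed to 41.5 to 209 CPM in MDM, 49 to 128 in lipid-laden MDM and at most 17.6 in either microglial group, where Gzmb and Ncr1 were at 0. Neutrophil markers summed to 98.2 to 130 CPM in MDM and 151 to 556 in lipid-laden MDM. In the latter 2 of the 5 tested were higher, and Ly6g and Camp were at 0 in both MDM groups. These markers summed to 232 to 328 CPM in microglia and 119 to 308 in lipid-laden microglia. Astrocyte markers summed to 57.3 to 93.3 CPM in MDM and 66.2 to 114 in lipid-laden MDM, where 2 of 7 were higher. They stood at 114 to 186 and 92.2 to 120 CPM in the microglia without and with lipid load. The part of these other cells in the results below was not tested. In sorted populations, fewer cells of a type and less RNA per cell cannot be told apart.

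Small RNAs encoded in or beside the members tie 3 loci to microRNAs named in the results. Mature sequences are from RefSeq (GRCm38.p6), with the seed, bases 2 to 8, in capitals. Dleu2 contains miR-15a and miR-16-1, and their 5p arms share the seed AGCAGCA. Mir155hg contains miR-155. Gm26532 begins 24 bases after the end of miR-24-3p, the last of the miR-23a, miR-27a and miR-24-2 cluster on the same strand.
miR-15a-5p (Dleu2), chr14:61632075-61632096, minus strand: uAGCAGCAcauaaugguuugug
miR-16-5p (Dleu2), chr14:61631936-61631957, minus strand: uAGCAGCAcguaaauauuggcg
miR-155-5p (Mir155hg), chr16:84714143-84714165, plus strand: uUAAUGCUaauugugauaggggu
miR-23a-3p (beside Gm26532), chr8:84208563-84208583, plus strand: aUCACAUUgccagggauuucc
miR-27a-3p (beside Gm26532), chr8:84208727-84208747, plus strand: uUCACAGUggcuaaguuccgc
miR-24-3p (beside Gm26532), chr8:84208875-84208896, plus strand: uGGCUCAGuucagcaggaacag
The table listed 0 counts in all libraries for Mir15a, Mir16-1 and Mir155. Libraries primed with oligo-dT do not measure mature microRNAs, and the values below are those of the host transcripts.

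Together the members held a small and narrow share of each library. It was 0.178 ± 0.0151% of counts in microglia, 0.152 ± 0.0131% in lipid-laden microglia, 0.199 ± 0.0198% in MDM and 0.174 ± 0.00769% in lipid-laden MDM (SD, n = 4, 4, 4 and 3). Malat1 alone made up 12.8% of the members' counts, the first 3 members (Malat1, AU020206 and Neat1) 32.2%, the first 10 64.6% and the first 20 80.5%. Per kilobase of exon, in the 46 members whose coordinates were the same in GENCODE M21, the highest mean levels were those of AW112010 (146 CPM per kilobase), AU020206 (64.5), Gm2629 (52.4), Gm10076 (42.4) and Malat1 (32.2). Exonic length ranged from 323 to 20771 bases, and 13 of the 51 had a single exonic segment. GENCODE M21 typed 39 of the 51 as lincRNA, 10 as processed transcript and 2, Gm10134 and AW011738, as protein coding. Exons of 3 members (1810026B05Rik, Snhg6 and Gm10605) overlapped those of a coding gene, and no source used here gives the strand setting of the counting, so their reads and those of the coding gene cannot be told apart.

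**Figure D1:**
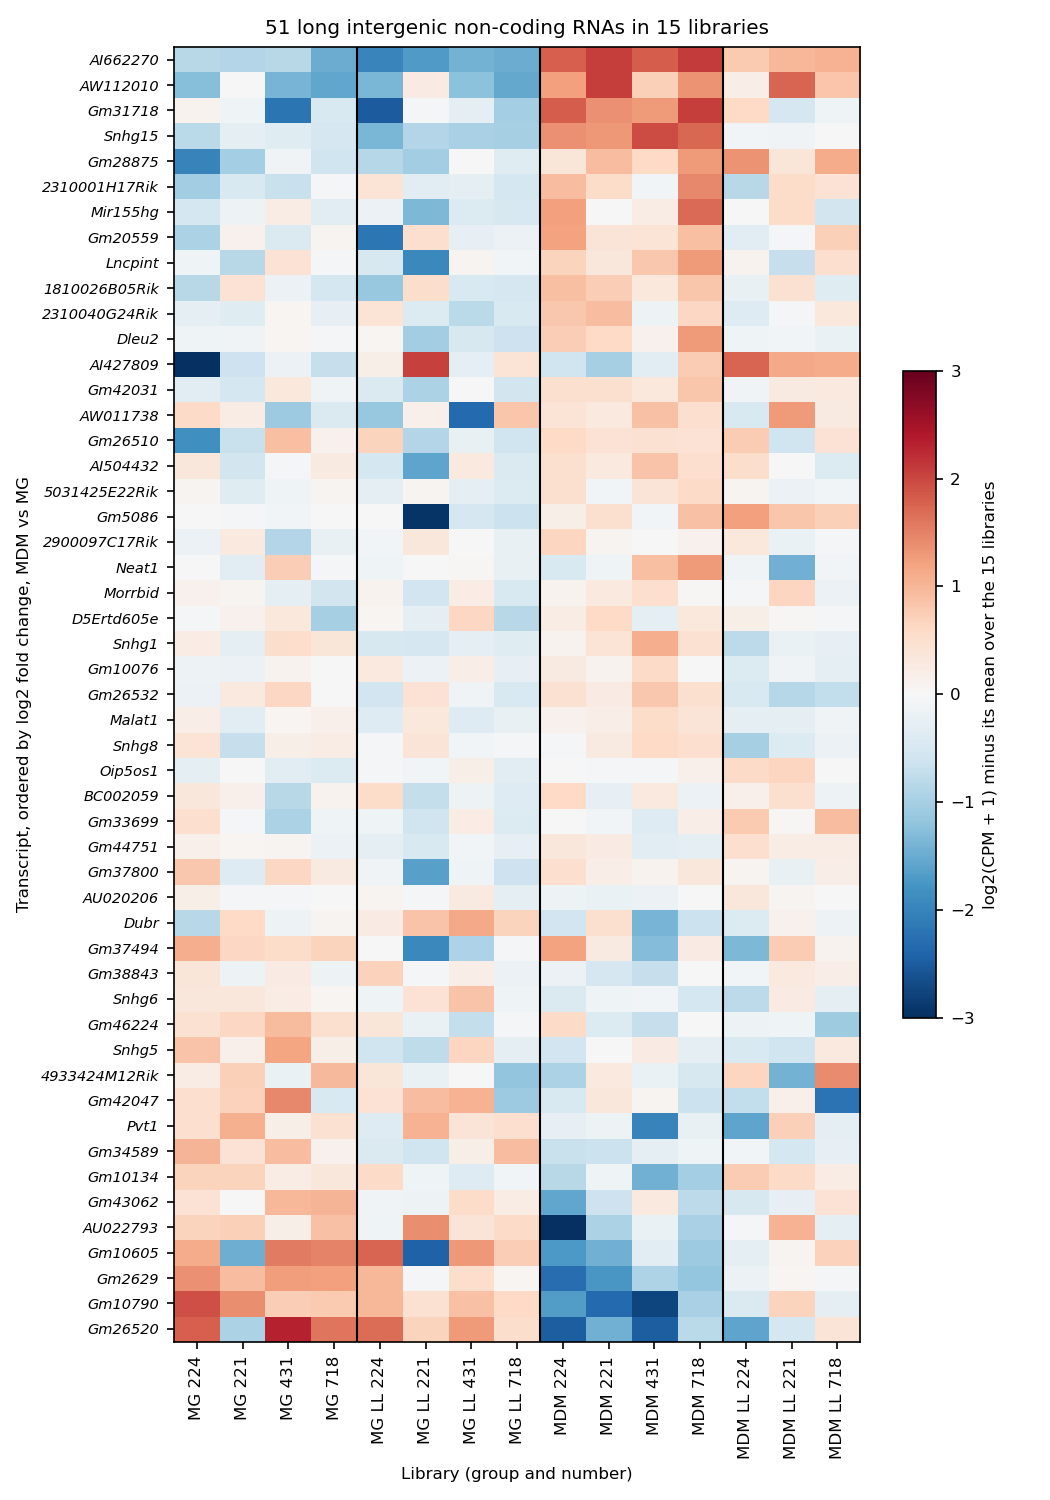
Each row is 1 of the 51 lincRNAs and each column 1 of the 15 libraries; colour is log2(CPM + 1) minus the transcript's mean over the libraries, and black lines divide the 4 groups. The rows are ordered by log2 fold change between MDM and microglia without lipid load, from 3.11 (AI662270) to -4.23 (Gm26520), so the top and bottom rows differ between those groups by construction.

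Origin was compared first, in cells without lipid load. A gene is called here when its edgeR quasi-likelihood p, adjusted by Benjamini-Hochberg over the 14843 genes tested, was under 0.05, and all 51 members were tested. In MDM against microglia 13 members were called (25.5%), against 23.2% of all tested genes, which is near the background. Among them AI662270, Gm31718, Gm28875, 2310001H17Rik, Gm10790 and Gm26520 reached their share of the entry limit in only 2 groups. The share called therefore depends partly on how members were chosen. The 8 higher in MDM were AI662270, AW112010, Gm31718, Snhg15, Gm28875, 2310001H17Rik, Dleu2 and Gm42031 (10.7% of all tested genes were higher). The 5 lower were Gm26520, Gm10790, Gm2629, Gm43062 and Gm10134 (12.5% of all tested genes were lower). The median log2 fold change of the members was 0.32, against -0.12 over all genes tested, and the groups did not overlap in 15 of the 51 members (29.4%) and in 28.6% of all tested genes.

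Lipid load in MDM went with 6 called members (11.8%, against 8.17% of all tested genes). Gm2629 and Gm10134 were higher in lipid-laden MDM (5.21% of all tested genes were higher). Snhg15, Gm26532, AI662270 and Snhg1 were lower (2.96% of all tested genes were lower). The members' median log2 fold change was -0.19, against 0.04 over all genes tested. Groups did not overlap in 16 of the 51 members (31.4%) and in 21.8% of all tested genes. Only 3 of these calls, Gm2629, Gm10134 and Snhg15, were kept in every fit that left out 1 of the 15 libraries.

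In microglia, lipid load went with 0 called members, against 0% of all tested genes. DESeq2 and limma-voom also called 0 members. These fits held no block for the library number. With the number as a replicate block edgeR called 0 members too, and Snhg15 had an adjusted p by edgeR of 0.127. At an unadjusted p under 0.05 there were 8 members (15.7%) and 1367 of all genes tested (9.21%), and the smallest adjusted p of a member was 0.345 (edgeR). The log2 fold change was negative in 39 members and positive in 12, with a median of -0.17 against -0.02 over all genes tested. Groups did not overlap in 3 members (5.88%) and in 5.46% of all tested genes.

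Between the lipid-laden groups 2 members were called, both higher in MDM: Snhg15 and AI662270 (3.92%, against 2.78% of all tested genes). Of these, AI662270 reached its share of the entry limit in only 2 groups. The share called here therefore also depends partly on how members were chosen. A difference in the lipid-load effect between MDM and microglia was tested as an interaction in the same fit. It was called for 3 members (5.88%, against 2.53% of all tested genes): Gm2629, Gm10134 and Snhg15. These calls come from the fit without a block for the library number. With that block AW112010 was also called between the lipid-laden groups (adjusted p by edgeR = 0.000459). The 3 members called for the difference stayed the same.

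**Figure D2:**
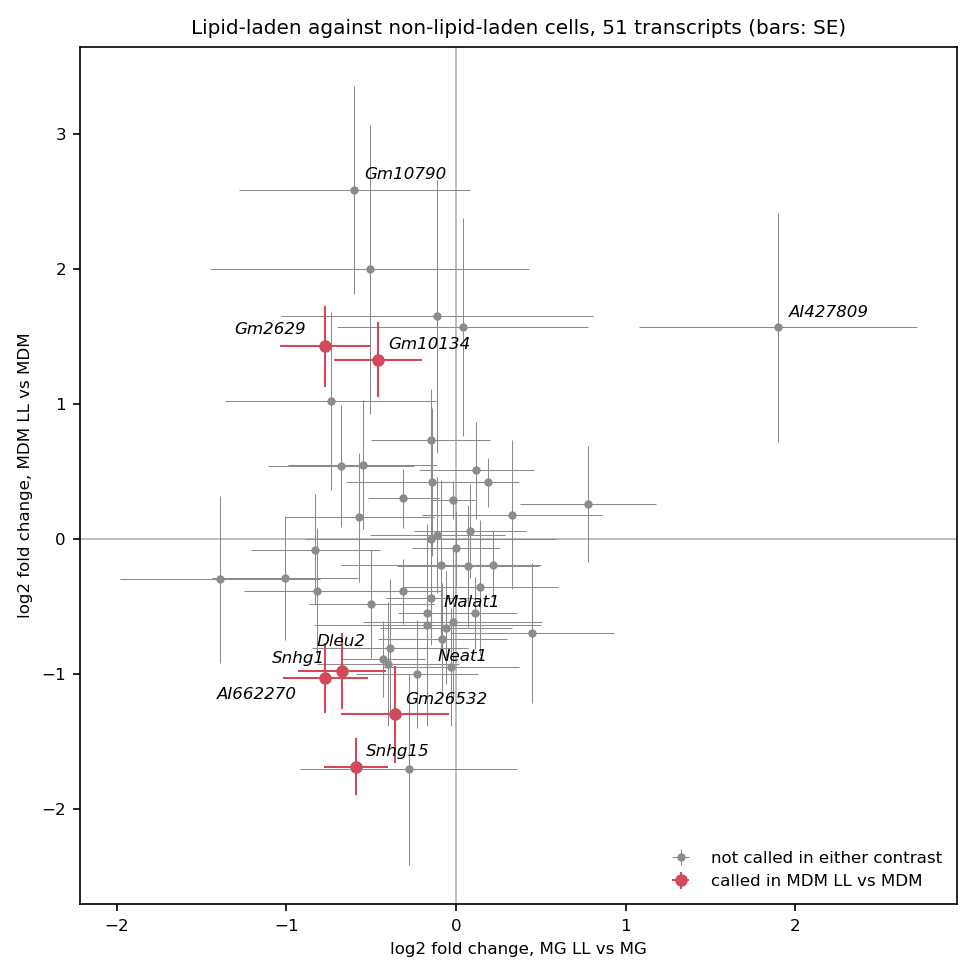
Each point is 1 of the 51 lincRNAs; the horizontal axis is the log2 fold change of lipid-laden against other microglia, the vertical axis the same in MDM, and bars are SE. The 6 members called in MDM are red: Gm2629 and Gm10134 lie above 0 on the vertical axis and to the left of 0 on the horizontal axis, and Snhg15, Gm26532, AI662270 and Snhg1 lie below 0 on both.

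Among the snoRNA hosts, Snhg15 followed both origin and lipid load. Snhg15 (ENSMUSG00000085156, chromosome 11, 6525591 to 6528779, minus strand) carries Snora9. Its level was 118, 111, 176 and 150 CPM in MDM and 41.8, 41.6 and 45.3 CPM in lipid-laden MDM. It was 24.9, 36.5, 34.5 and 31.2 CPM in microglia and 16.7, 23.7, 22.3 and 21.9 CPM in lipid-laden microglia. The 4 groups did not overlap anywhere in this series: every MDM library stood above every lipid-laden MDM library, these above every microglial library, and each lipid-laden microglial library below each other one. Snhg15 was higher in MDM than in microglia by a log2 fold change of 2.13 (SE 0.19, adjusted p by edgeR = 1.94e-06). It was lower in lipid-laden than in other MDM by a log2 fold change of -1.69 (SE 0.21, adjusted p by edgeR = 0.000182), and still higher in lipid-laden MDM than in lipid-laden microglia by 1.02 (SE 0.20, adjusted p by edgeR = 0.0102). In microglia the lipid-laden libraries were lower in 4 of 4 number-matched pairs, but the log2 fold change of -0.59 (SE 0.19) did not pass the test (adjusted p by edgeR = 0.345). The difference between the effects in MDM and microglia was -1.11 (SE 0.27, adjusted p by edgeR = 0.0421). This difference kept its call only without lipid-laden microglia 224, microglia 221 or MDM 221, and lost it in the 12 other fits that left out 1 library, with adjusted p up to 0.0981, and under limma-voom (adjusted p = 0.0842).

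Snhg1 (ENSMUSG00000108414, chromosome 19, 8723475 to 8726443), host of 8 snoRNAs including Snord22, was at 27.1, 34.2, 54.5 and 34.9 CPM in MDM and at 14.2, 21.8 and 21.2 CPM in lipid-laden MDM. The groups did not overlap, and Snhg1 was lower with lipid load by a log2 fold change of -0.98 (SE 0.28, adjusted p by edgeR = 0.045). The call was kept without MDM 224, microglia 221, lipid-laden microglia 221 or microglia 431, and lost in the 11 other fits without 1 library, where the adjusted p reached 0.166. In microglia it was at 29.6, 20.6, 36.6 and 33.0 CPM without and 17.9, 17.4, 20.7 and 19.4 CPM with lipid load. The lipid-laden libraries were lower in 4 of 4 pairs, although microglia 221 (20.6 CPM) lay just below the highest lipid-laden library and the test was not passed (log2 fold change -0.67, SE 0.26, adjusted p by edgeR = 0.437).

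The other 3 hosts were called in no comparison. Snhg8, host of Snora24, measured 7.15, 9.21, 11.8 and 11.1 CPM in MDM against 3.25, 5.40 and 6.52 CPM in lipid-laden MDM, which did not overlap (log2 fold change -0.95, SE 0.44, adjusted p by edgeR = 0.209). Snhg5, host of Snord50a and Snord50b, was at 34.2, 20.6, 43.1 and 21.1 CPM in microglia and 11.8, 10.5, 29.6 and 14.8 CPM in lipid-laden microglia. It was lower in 4 of 4 pairs, the groups overlapped and the test was not passed (log2 fold change -0.83, SE 0.38, adjusted p by edgeR = 0.518). Snhg6, host of Snord87, had a log2 fold change of 0.08 (SE 0.33) with lipid load in microglia and 0.06 (SE 0.35) in MDM. The snoRNAs themselves had 0 counts in the table, apart from 3 counts for Snord87.

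Of a wider list of 18 snoRNA host genes, 13 were tested, the 5 members among them. In lipid-laden against other MDM 2 were lower and 0 higher, both of them members, and the median log2 fold change was -0.24. In MDM against microglia 1, Snhg15, was higher, and the median was -0.25. Gas5, the most abundant host that is no member (it has another biotype), measured 108 ± 13.1 CPM in MDM against 72.1 ± 13.2 CPM in lipid-laden MDM (SD, n = 4 and 3), and its log2 fold change of -0.58 (SE 0.18) did not pass the test (adjusted p by edgeR = 0.0558).

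The promoters of both called hosts are shown because Snhg15 and Snhg1 were lower together in lipid-laden MDM. They are RefSeq windows (GRCm38.p6) of 250 bases before to 50 bases after the start. Capitals mark matches, on either strand, to the motifs searched: TGANTCA (AP-1), ACGTG and GCGTG (hypoxia response core), GAGGAAGT (PU.1), TGACGTCA (CRE) and CACGTG (E-box, which holds ACGTG on both strands).
Snhg15, chr11:6528711-6529010, minus strand: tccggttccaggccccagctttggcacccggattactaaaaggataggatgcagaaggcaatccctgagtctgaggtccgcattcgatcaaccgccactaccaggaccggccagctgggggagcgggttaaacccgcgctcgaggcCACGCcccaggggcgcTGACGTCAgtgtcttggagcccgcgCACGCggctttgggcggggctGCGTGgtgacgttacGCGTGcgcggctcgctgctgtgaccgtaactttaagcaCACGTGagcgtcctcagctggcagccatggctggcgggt
Snhg1, chr19:8723237-8723536, plus strand: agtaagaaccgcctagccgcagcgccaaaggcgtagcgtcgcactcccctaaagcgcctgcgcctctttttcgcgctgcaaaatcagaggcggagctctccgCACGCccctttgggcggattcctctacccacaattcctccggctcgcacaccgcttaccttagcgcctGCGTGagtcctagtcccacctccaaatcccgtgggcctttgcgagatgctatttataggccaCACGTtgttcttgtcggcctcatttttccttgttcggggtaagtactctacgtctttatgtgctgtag
Snhg15 held 4 matches to GCGTG, 1 to TGACGTCA and 1 to CACGTG. Snhg1 held 2 matches to GCGTG and 1 to ACGTG. Of 32851 promoters of this length, 32.4% held GCGTG, 19.6% ACGTG, 7.15% CACGTG, 1.79% TGACGTCA, 7.81% TGANTCA and 3.2% GAGGAAGT. RefSeq windows matched 28 of the 51 members by symbol, 32 windows in all, of which 25% held GCGTG, 28.1% ACGTG, 12.5% CACGTG and 3.12% TGACGTCA, the last in Snhg15 alone. A match describes letters in this window, not a bound site.

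**Figure D3:**
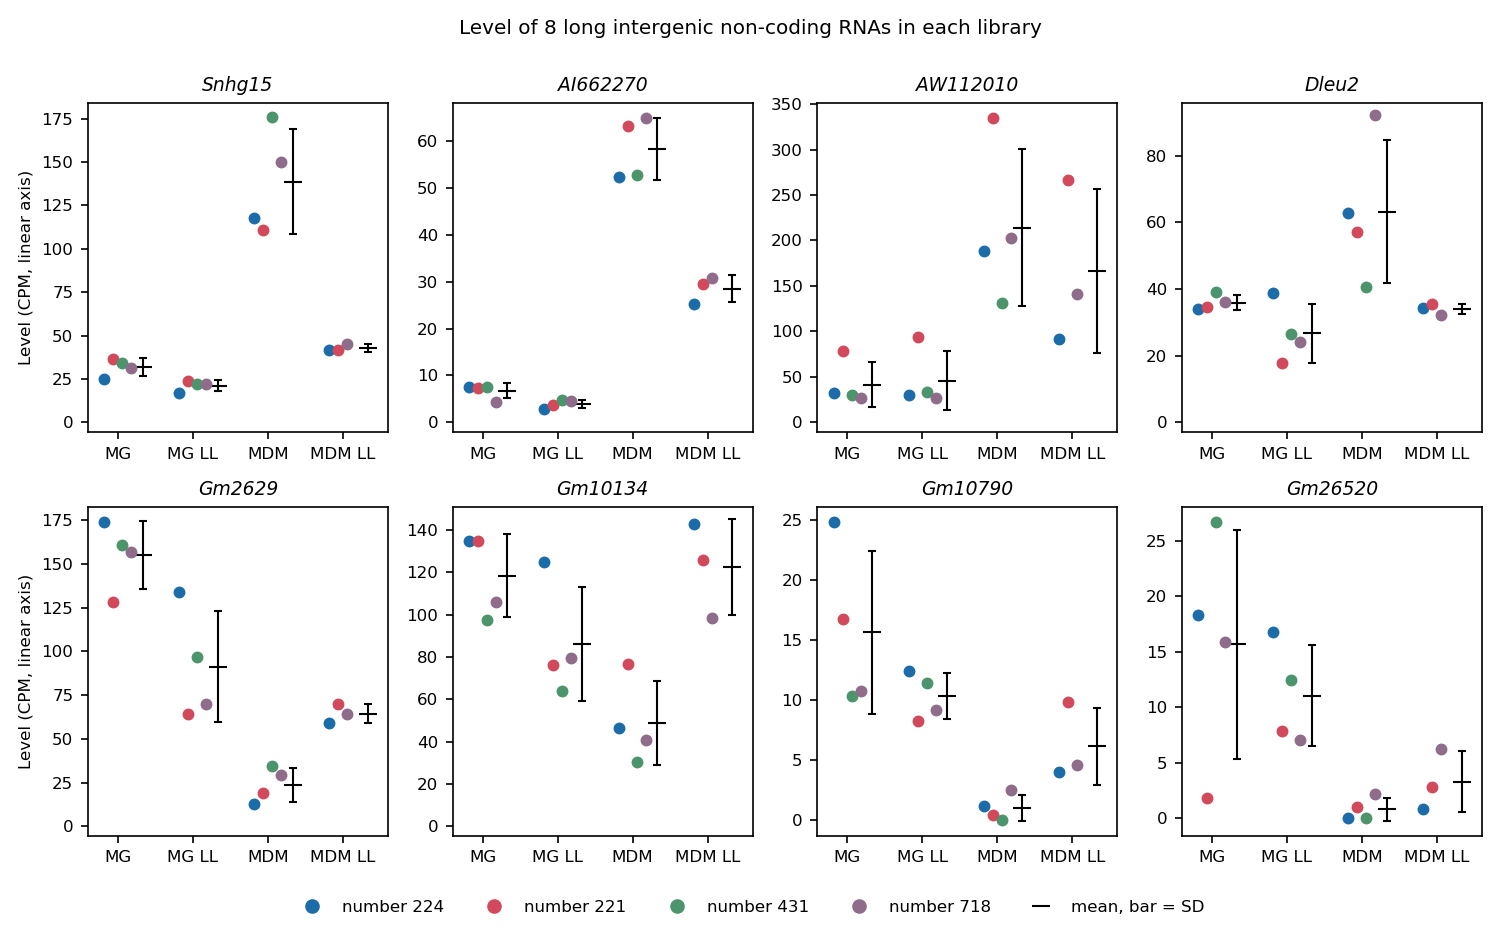
Each panel gives the level of 1 transcript in CPM on a linear axis, with 1 point per library coloured by its number, and the mean with SD beside each group. Snhg15 and AI662270 are high in MDM without overlap with any other group, and Gm2629 and Gm10134 are low there, with every lipid-laden MDM library above every other MDM library.

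Of the microRNA hosts, Dleu2 differed by origin in cells without lipid load. Dleu2 (ENSMUSG00000097589, chromosome 14, 61602839 to 61682373, minus strand), whose miR-15a and miR-16 restrain cell cycle and survival genes, measured 62.9, 57.1, 40.7 and 92.1 CPM in MDM against 34.0, 34.5, 39.0 and 36.2 CPM in microglia. Every MDM library lay above every microglial one, the closest being 40.7 against 39.0, and the log2 fold change was 0.82 (SE 0.25, adjusted p by edgeR = 0.0293). The call was lost without microglia 224, 221 or 718 or MDM 224 or 718 (5 of 15 fits, adjusted p up to 0.121). In lipid-laden MDM Dleu2 was at 34.3, 35.5 and 32.3 CPM, below every other MDM library, but the log2 fold change of -0.89 (SE 0.28) did not pass edgeR's test (adjusted p = 0.06), while it did under DESeq2 (adjusted p = 0.012) and limma-voom (adjusted p = 0.0484). In lipid-laden microglia Dleu2 was at 38.9, 17.7, 26.4 and 24.1 CPM. The lipid-laden groups overlapped, and their difference by origin was not called (log2 fold change 0.35, SE 0.27, adjusted p by edgeR = 0.633). The bodies of the coding genes Trim13 and Kcnrg lie within Dleu2 on the opposite strand without shared exons.

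Mir155hg (ENSMUSG00000097418, chromosome 16, 84703167 to 84715245), the host of miR-155, measured 34.3, 13.9, 16.5 and 47.6 CPM in MDM against 9.35, 12.4, 16.4 and 10.9 CPM in microglia. It was higher in MDM in 4 of 4 pairs, but the groups overlapped and the log2 fold change of 1.20 (SE 0.42) did not pass in edgeR (adjusted p by edgeR = 0.0516) or limma-voom (adjusted p = 0.072) but did in DESeq2 (adjusted p = 0.0193). In lipid-laden MDM it was at 14.0, 20.9 and 9.26 CPM (log2 fold change -0.93, SE 0.46, adjusted p by edgeR = 0.241). The range in MDM, with the libraries 224 and 718 high, was wider than in any other group.

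Gm26532 (ENSMUSG00000097296, chromosome 8, 84208920 to 84209609), a single exon directly downstream of the miR-23a cluster, measured 16.6, 14.3, 21.7 and 16.9 CPM in MDM against 8.33, 6.17 and 6.71 CPM in lipid-laden MDM. The groups did not overlap, and Gm26532 was lower with lipid load by a log2 fold change of -1.30 (SE 0.36, adjusted p by edgeR = 0.0378). The call was lost without any 1 lipid-laden MDM library, without MDM 224, 431 or 718 and without microglia 718 (7 of 15 fits, adjusted p up to 0.13). In microglia it was at 14.0 ± 3.66 CPM without and 10.9 ± 3.88 CPM with lipid load (SD, n = 4 each), which did not pass the test (log2 fold change -0.36, SE 0.32, adjusted p by edgeR = 0.827).

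Of 13 genes listed as microRNA hosts, 8 were tested, 3 of them members (Dleu2, Mir155hg and Lncpint). The RefSeq mature microRNAs searched held none inside Lncpint or within 1000 bases of it. In MDM against microglia 1 was higher, Dleu2, and 1 lower, Mir99ahg, which is no member (log2 fold change -2.87, SE 0.67, adjusted p by edgeR = 0.00567). The median log2 fold change of the 8 was 0.88 in that comparison and -0.85 in lipid-laden against other MDM, where 0 were called. Lncpint, a p53-induced transcript, was at 22.1 ± 6.31 CPM in MDM against 11.4 ± 4.18 CPM in microglia (SD, n = 4 each). Its log2 fold change of 0.95 (SE 0.46) did not pass the test (adjusted p by edgeR = 0.155). It was higher in MDM in 4 of 4 pairs. With the library number as a replicate block it passed (log2 fold change 1.01, SE 0.33, adjusted p by edgeR = 0.0373). Whether numbers pair the libraries of these groups was not settled.

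**Figure D4:**
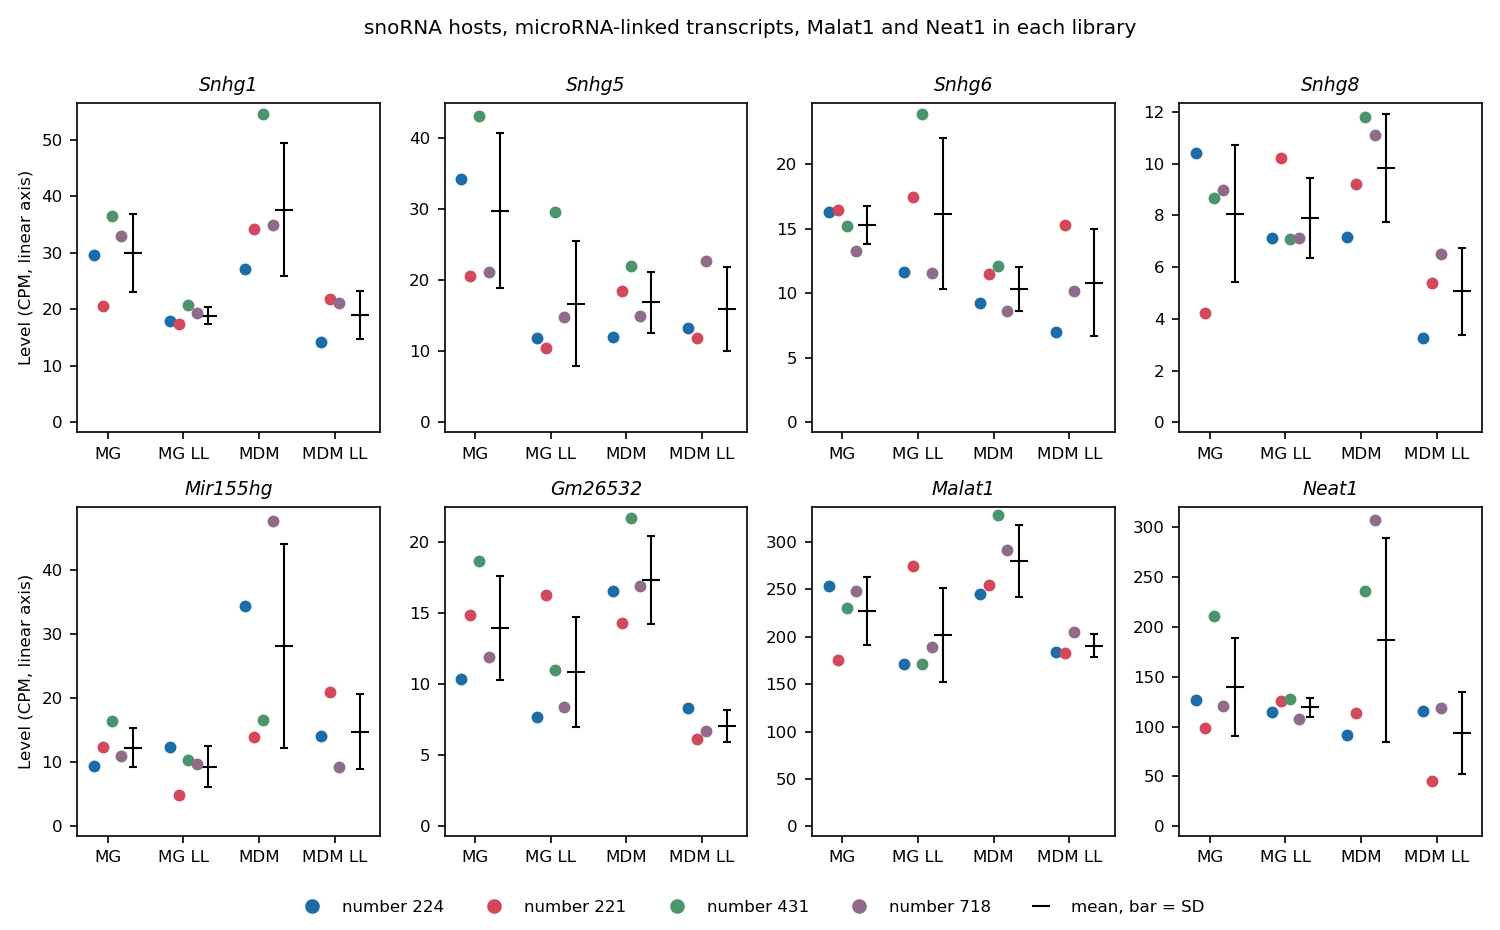
Each panel gives the level of 1 transcript in CPM on a linear axis, with 1 point per library coloured by its number, and the mean with SD beside each group. In Snhg1, Snhg8, Gm26532 and Malat1 all 3 lipid-laden MDM libraries lie below the 4 other MDM libraries, whereas in Snhg5, Snhg6, Mir155hg and Neat1 these groups overlap.

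The 2 transcripts of nuclear bodies were abundant in every group and called in no comparison. Malat1 (ENSMUSG00000092341, chromosome 19, 5795690 to 5802672) measured 245, 255, 328 and 292 CPM in MDM against 184, 183 and 205 CPM in lipid-laden MDM. All 3 lipid-laden libraries were lower and the groups did not overlap, but the log2 fold change of -0.55 (SE 0.19) did not pass edgeR's test (adjusted p = 0.0816), whereas it did in DESeq2 (adjusted p = 0.0281). In microglia Malat1 was at 254, 175, 230 and 248 CPM, and in lipid-laden microglia at 171, 275, 171 and 189 CPM. Library 221 was the lowest of the first group and the highest of the second, while the other 3 pairs were lower with lipid load.

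Neat1 (ENSMUSG00000092274, chromosome 19, 5824708 to 5845478) varied most among MDM, at 91.1, 114, 236 and 307 CPM. It was at 116, 45.6 and 119 CPM in lipid-laden MDM, at 127, 98.9, 211 and 121 CPM in microglia and at 115, 126, 128 and 108 CPM in lipid-laden microglia. The groups overlapped throughout, and the log2 fold change of -1.0 (SE 0.40) with lipid load in MDM did not pass the test (adjusted p by edgeR = 0.145). Counts are per gene, so isoforms of Neat1 were not told apart. Libraries were primed with oligo-dT, and how far that captures Malat1 and each isoform of Neat1 was not tested. Of 19 paraspeckle proteins tested, 0 were called with lipid load in MDM and 1 was lower in MDM than in microglia, Smarca4 (log2 fold change -0.42, SE 0.14, adjusted p by edgeR = 0.0402). Of 19 nuclear speckle proteins, 2 were lower in lipid-laden than in other MDM: the splicing factor Srsf7 (log2 fold change -0.58, SE 0.14, adjusted p by edgeR = 0.0153) and the kinase Clk1 (log2 fold change -0.49, SE 0.15, adjusted p by edgeR = 0.0485).

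Transcripts tied to immune cells were led by AW112010, a lincRNA that is induced in activated macrophages and carries a short non-canonical open reading frame. AW112010 (ENSMUSG00000075010, chromosome 19, 11047612 to 11055808, 4 exonic segments of 804 bases in all) was at 188, 335, 131 and 203 CPM in MDM against 32.1, 78.5, 29.7 and 26.3 CPM in microglia. Every MDM library stood above every microglial one, and the log2 fold change was 2.36 (SE 0.48, adjusted p by edgeR = 0.00231). In lipid-laden cells it was at 91.5, 266 and 141 CPM in MDM against 30.0, 93.8, 33.4 and 26.5 CPM in microglia. Library 221 was the highest of each of the 4 groups. The lipid-laden groups overlapped because of it, and the log2 fold change of 1.86 (SE 0.50) did not pass in edgeR (adjusted p by edgeR = 0.0594) but did in DESeq2 (adjusted p = 0.00743) and limma-voom (adjusted p = 0.0282). With the library number as a replicate block the same contrast passed (adjusted p by edgeR = 0.000459), and same-numbered libraries of these groups deviated together. Lipid load itself went with a log2 fold change of 0.14 (SE 0.46) in microglia and -0.36 (SE 0.50) in MDM, neither called. With the block these were 0.09 (SE 0.19) and -0.56 (SE 0.21, adjusted p by edgeR = 0.108), again not called. The level was lower with lipid load in 3 of 3 number-matched pairs of MDM and higher in 3 of 4 of microglia.

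AI662270 (ENSMUSG00000087107, chromosome 11, 83223576 to 83226604), a single-exon transcript, had the largest increase of any member in MDM. It is one of the members that reached their share of the entry limit in only 2 groups. It was at 52.3, 63.3, 52.7 and 64.8 CPM in MDM against 7.63, 7.34, 7.60 and 4.43 CPM in microglia, a log2 fold change of 3.11 (SE 0.25, adjusted p by edgeR = 8.82e-07). In lipid-laden MDM it was at 25.3, 29.6 and 30.7 CPM, below every other MDM library and above every microglial one. That decrease was a log2 fold change of -1.03 (SE 0.26, adjusted p by edgeR = 0.0223), and the call was lost without any 1 lipid-laden MDM library and without MDM 221 or 718 (5 of 15 fits, adjusted p up to 0.0922). In lipid-laden microglia it was at 2.90, 3.72, 4.74 and 4.47 CPM, and it was higher in lipid-laden MDM by a log2 fold change of 2.85 (SE 0.26, adjusted p by edgeR = 3.49e-05). Its exon shares 491 bases with the transcribed pseudogene Gm11427, so its counts are uncertain to that extent. MDM, dendritic cell and T and NK cell markers were also higher in MDM than in microglia, as given above, and their part in the levels of AW112010, AI662270, Snhg15 and Dleu2 was not tested.

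Morrbid (ENSMUSG00000074813, chromosome 2, 128178319 to 128502765), known to repress its neighbour Bcl2l11, measured 36.6, 42.1, 48.8 and 35.1 CPM in MDM against 37.1, 36.1, 27.8 and 22.9 CPM in microglia. The groups overlapped and the log2 fold change of 0.39 (SE 0.26) did not pass the test (adjusted p by edgeR = 0.308). Bcl2l11, which encodes the pro-apoptotic protein BIM, lies 15772 bases away and was higher in MDM by a log2 fold change of 1.75 (SE 0.29, adjusted p by edgeR = 0.000452), at 169 ± 38.7 against 50.3 ± 15.1 CPM (SD, n = 4 each).

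AI427809 (ENSMUSG00000086712, chromosome 4, 53261356 to 53270232), a macrophage transcript also known as MeXis that responds to the sterol-sensing liver X receptors and acts on Abca1, was picked out for that role after its values were seen. It measured 7.55, 5.48, 9.11 and 20.7 CPM in MDM against 41.9, 27.1 and 27.0 CPM in lipid-laden MDM, without overlap. In microglia it was at 0, 7.34, 10.4 and 6.95 CPM without and 13.6, 52.7, 9.47 and 16.1 CPM with lipid load, where library 221 was far above the others. Neither log2 fold change passed the test: 1.57 (SE 0.85, adjusted p by edgeR = 0.291) in MDM and 1.90 (SE 0.82, adjusted p by edgeR = 0.5) in microglia. Abca1, the cholesterol exporter, is the nearest coding gene at 101461 bases and was higher in lipid-laden than in other MDM (log2 fold change 1.32, SE 0.17, adjusted p by edgeR = 0.000242). In microglia Abca1 had a log2 fold change of 0.22 (SE 0.16, adjusted p by edgeR = 0.749) with lipid load.

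Of 12 immune and macrophage non-coding RNAs listed, 6 were tested and 2 of these, AW112010 and Mir155hg, were members (Morrbid was listed under an older symbol and is not counted). In MDM against microglia 2 of the 6 were higher and 0 lower: AW112010 and F630028O10Rik, the latter at 0 counts in every microglial library without lipid load. With lipid load in MDM 0 were called, the log2 fold change was negative in 6 of 6 and the median was -1.11.

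Of the members with a known link to growth and RNA stability, none of the 4 listed was called in any group comparison. Oip5os1 (Cyrano), which directs the decay of miR-7, was at 119, 126 and 79.7 CPM in lipid-laden MDM and 79.6, 77.9, 77.2 and 89.1 CPM in other MDM. The groups overlapped at library 718 and the log2 fold change of 0.42 (SE 0.18) did not pass the test (adjusted p by edgeR = 0.174). 2900097C17Rik, the mouse counterpart of NORAD, which binds Pumilio proteins, had log2 fold changes between lipid-laden and other cells of 0.22 (SE 0.23) in microglia and -0.19 (SE 0.25) in MDM. Pvt1, the neighbour of Myc, measured 12.4, 13.5, 2.99 and 12.8 CPM in MDM against 21.8, 32.8, 17.2 and 21.1 CPM in microglia, which did not overlap (log2 fold change -1.15, SE 0.52, adjusted p by edgeR = 0.124). Myc lay 47612 bases away and was lower in lipid-laden than in other MDM (log2 fold change -1.05, SE 0.22, adjusted p by edgeR = 0.00702), where Pvt1 had a log2 fold change of 0.42 (SE 0.55, adjusted p by edgeR = 0.728). Of 10 listed genes of this kind, 7 were tested and 0 were called in any of the 4 group comparisons. Listed imprinted and neural non-coding RNAs, which share some genes, included 0 members. Of the 6 tested in each list, 2 imprinted and 3 neural genes were lower in MDM than in microglia, where the summed glioma and progenitor markers were also lower.

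The remaining called members carry no established function. Gm2629 (ENSMUSG00000117613, chromosome 18, 15194782 to 15214696) and Gm10134 (ENSMUSG00000063611, chromosome 2, 28506095 to 28507773) were both lowest in MDM and higher in lipid-laden MDM, and differed in the order of the other groups. Gm2629 was at 174, 128, 161 and 157 CPM in microglia and 12.8, 19.2, 34.4 and 29.1 CPM in MDM, far apart, with a log2 fold change of -2.70 (SE 0.29, adjusted p by edgeR = 8.79e-06). In lipid-laden MDM it was at 59.0, 70.1 and 64.3 CPM, above every other MDM library (log2 fold change 1.43, SE 0.30, adjusted p by edgeR = 0.00679). In lipid-laden microglia it was at 134, 64.2, 97.0 and 70.1 CPM, lower in 4 of 4 pairs, which did not pass (log2 fold change -0.77, SE 0.27, adjusted p by edgeR = 0.379). The difference of the effects was 2.20 (SE 0.40, adjusted p by edgeR = 0.00857). Without all libraries numbered 221 it was 1.99 and not called (adjusted p by edgeR = 0.0529).

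Gm10134 was at 135, 135, 97.5 and 106 CPM in microglia and 46.5, 76.7, 30.4 and 40.9 CPM in MDM, without overlap (log2 fold change -1.28, SE 0.27, adjusted p by edgeR = 0.00257). Its level in lipid-laden MDM, 143, 126 and 98.2 CPM, was above every other MDM library and overlapped both microglial groups (log2 fold change against MDM 1.33, SE 0.28, adjusted p by edgeR = 0.00811). In lipid-laden microglia it was at 125, 76.2, 63.8 and 79.5 CPM (log2 fold change -0.46, SE 0.26, adjusted p by edgeR = 0.634), lower in 4 of 4 pairs. The difference of the effects was 1.79 (SE 0.39, adjusted p by edgeR = 0.0208), and it was not called without microglial library 224 (adjusted p = 0.0502) or lipid-laden MDM library 224 (adjusted p = 0.0612). GENCODE M21 lists Gm2629 as a lincRNA and Gm10134 as protein coding. Whether either shares reads with related copies elsewhere was not tested. Summed microglia markers were also lowest in MDM and higher in lipid-laden MDM, and so were summed markers of glioma and progenitor cells. Between the lipid-laden groups all 10 microglia markers had a negative log2 fold change for MDM, as did 14 of 15 glioma and progenitor markers. That of Gm2629 was also negative (-0.50, SE 0.30), while that of Gm10134 was positive (0.51, SE 0.28), neither transcript being called. The part of either marker set in these values was not tested.

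A further pair of members was low in MDM. Gm10790 (chromosome 13, 41865915 to 41913092) was at 24.8, 16.7, 10.3 and 10.7 CPM in microglia and 1.11, 0.35, 0 and 2.45 CPM in MDM, without overlap (log2 fold change -3.95, SE 0.78, adjusted p by edgeR = 0.00176). In lipid-laden MDM it was at 4.00, 9.80 and 4.54 CPM, above every other MDM library, with a log2 fold change of 2.59 (SE 0.77) that did not pass edgeR's test (adjusted p = 0.0506) but did in DESeq2 (adjusted p = 0.00296) and limma-voom (adjusted p = 0.0421). Gm26520 (chromosome 12, 3343816 to 3357153) was at 18.3, 1.86, 26.7 and 15.9 CPM in microglia and 0, 1.05, 0 and 2.17 CPM in MDM. Microglial library 221 fell within the range of MDM, and the log2 fold change was -4.23 (SE 1.10, adjusted p by edgeR = 0.011). Markers of glioma and progenitor cells and microglia markers were also lowest in MDM. The part of either marker set in these low levels was not tested. Gm43062 was at 13.9, 10.0, 21 and 21.2 CPM in microglia and 2.72, 6.18, 12.4 and 5.34 CPM in MDM. The groups overlapped, and the call (log2 fold change -1.32, SE 0.45, adjusted p by edgeR = 0.0451) was kept without microglia 221, lipid-laden microglia 221, lipid-laden microglia 431 or MDM 431 and lost in the 11 other fits without 1 library (adjusted p up to 0.12).

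The other 4 called members were higher in MDM. Gm31718 (chromosome 8, 126812640 to 126908215) measured 32.3, 23.3, 21.7 and 38.3 CPM in MDM against 9.14, 7.54, 1.05 and 5.82 CPM in microglia (log2 fold change 2.29, SE 0.65, adjusted p by edgeR = 0.0189). The groups did not overlap, and in lipid-laden MDM all 3 libraries (13.3, 5.62 and 7.65 CPM) lay below the other MDM libraries, a log2 fold change of -1.71 (SE 0.71) that did not pass in edgeR (adjusted p by edgeR = 0.159) or DESeq2 (adjusted p = 0.0634) but did in limma-voom (adjusted p = 0.0414). Gm28875 was at 8.56, 13.1, 10.3 and 16.9 CPM in MDM against 0.86, 2.69, 5.96 and 3.92 CPM in microglia (log2 fold change 1.86, SE 0.54, adjusted p by edgeR = 0.0198), again without overlap. 2310001H17Rik, which lies 21878 bases from the lectin gene Clec2d, was at 14.8, 11.1, 6.90 and 21.6 CPM against 3.01, 5.06, 4.21 and 6.95 CPM, where the ranges overlapped by a narrow margin (log2 fold change 1.50, SE 0.48, adjusted p by edgeR = 0.0353). Gm42031 was at 81.9 ± 13.1 against 51 ± 13.6 CPM (SD, n = 4 each; log2 fold change 0.68, SE 0.23, adjusted p by edgeR = 0.0392). The call of Gm28875 ended without MDM 718 (adjusted p by edgeR = 0.0582). That of 2310001H17Rik ended without microglia 224, 221 or 431 or MDM 224 or 718 (adjusted p up to 0.123), and that of Gm42031 without any 1 library of number 224, 221 or 718 in these groups (adjusted p up to 0.116).

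The other 36 members were called in none of the 5 comparisons, with group means between 1.89 and 280 CPM. AU020206 (chromosome 7, 75769038 to 75782099), among the most abundant, was also among the steadiest. It measured 230, 196, 199 and 204 CPM in microglia, 214, 194, 243 and 167 CPM in lipid-laden microglia, 182, 176, 181 and 200 CPM in MDM and 259, 216 and 205 CPM in lipid-laden MDM. The lipid-laden MDM libraries lay above the other MDM libraries by a log2 fold change of 0.29 (SE 0.14) that did not pass the test (adjusted p by edgeR = 0.233). Gm5086 measured 83.7, 63.1 and 58.5 CPM in lipid-laden MDM and 35.3, 3.72, 24.4 and 22.3 CPM in lipid-laden microglia. These groups did not overlap, and the log2 fold change of 1.68 (SE 0.45) did not pass in edgeR (adjusted p by edgeR = 0.0624) but did in DESeq2 (adjusted p = 0.0101) and limma-voom (adjusted p = 0.015). In edgeR it passed without lipid-laden microglia 224 or 221. In microglia without lipid load Gm5086 stood between 33.1 and 34.9 CPM, so lipid-laden library 221 stood far below them. Gm37494 measured 27.5, 19.3, 18.6 and 20.2 CPM in microglia and 12.3, 2.51, 5.97 and 11.9 CPM in lipid-laden microglia, lower in 4 of 4 pairs without overlap. Its log2 fold change of -1.39 (SE 0.59) did not pass the test (adjusted p by edgeR = 0.488). Gm44751 was also lower in 4 of 4 of these pairs, by a log2 fold change of -0.31 (SE 0.21, adjusted p by edgeR = 0.71). Gm10076 was steady at 13.6 to 20.2 CPM over both microglial groups.

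The nearest coding gene lay within 10 kb for 25 of the 51 members, and it was itself tested for 43. Of 12 members called in MDM against microglia with a tested neighbour, 2 had a neighbour called in the same direction and 0 in the opposite one (of all tested genes, 10.7% were called higher and 12.5% lower). The first was Snhg15 with Myo1g, a myosin of blood cells 4626 bases away, at 181 ± 52 CPM in MDM against 44.5 ± 5.62 CPM in microglia (SD, n = 4 each; log2 fold change 2.02, SE 0.23, adjusted p by edgeR = 1.69e-05). The second was AW112010 with Ms4a8a, 11663 bases away, at 28.8 ± 16.6 and 0.169 ± 0.222 CPM (log2 fold change 7.30, SE 0.93, adjusted p by edgeR = 0.000112). Among the 6 members called with lipid load in MDM, the neighbour was called in the same direction for 1, Snhg15 (of all tested genes, 5.21% were called higher and 2.96% lower): Myo1g was lower in lipid-laden MDM by a log2 fold change of -1.10 (SE 0.25, adjusted p by edgeR = 0.0128). In microglia Myo1g and Snhg15 had log2 fold changes of 0.36 (SE 0.23) and -0.59 (SE 0.19) with lipid load, neither called. Between the lipid-laden groups, where Snhg15 was called, Myo1g was not (log2 fold change 0.57, SE 0.24, adjusted p by edgeR = 0.28).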

How the data were processed

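Per the labels' protocols, RNA from sorted cells was isolated with a column kit and DNase, had RNA integrity numbers above 8, and was made into libraries by oligo-dT priming and template switching from a few nanograms. The authors deposited 1 table of raw read counts per gene, not normalized, with biotypes and coordinates, per the file header. Reads were placed on mm10, per the submitters' processing notes; no source used here names the aligner, counter or strand setting (not given in the sources used here). A row without a gene held 0 counts.

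Counts were fitted with edgeR 4.0.16 (R 4.3.3): TMM, filterByExpr (minimum count 10, minimum total 15), quasi-likelihood test, 1 coefficient per group over all 15 libraries, Benjamini-Hochberg over 14843 genes. SE is the absolute log2 change divided by the root of the F statistic. DESeq2 1.42.0, limma-voom 3.58.1, other scaling, no filter, a replicate block and left-out libraries were alternatives. The test was tried on simulated counts with known changes. No 2 replicates agreed within sampling noise (lowest chi-square divided by its degrees of freedom, 17.3).

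Deviations from group means correlated between same-numbered libraries in every pair (r above 0.1) for lipid-laden against other microglia (0.124 to 0.256) and for the lipid-laden groups (0.107 to 0.168), so numbers were taken to pair those samples; what a number marks is not stated, and p-values then measure only the spread between these samples, which may be technical. For lipid-laden against other MDM (0.0272 to 0.123) and MDM against microglia (0.0152 to 0.15) not every pair reached 0.1. Whether numbers pair those samples was not settled. The edgeR p-values given above come from the fit without a block unless a block is named, so they do not use any pairing. The members, gene lists and rules were chosen with earlier results of these data known. Named members are those on the lists, in each contrast up to 6 called rises and up to 6 called falls, by size, with 1 sign in every pair (3 and 3 for the difference), the 5 of smallest p where under 5 were called, the 5 highest per kilobase (among 46 with unchanged coordinates), those next to the count limit, and the nearest coding genes. Others named, such as Gm42031, Morrbid and AI427809, were chosen after their values were seen. Annotation is GENCODE M21 (GRCm38), sequences RefSeq.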

Additional observations from a re-analysis of the deposited data

Results flagged for a closer look

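Within a group of 4 libraries, 6 of 90 group-and-transcript sets held 1 library far from the other 3, and chance alone gives about 1 in 20. Library 221 accounted for 4 of the 6. Malat1 was at 275 CPM in lipid-laden microglia 221, Snhg8 at 10.2 CPM in the same library, and AW112010 at 93.8 CPM there and at 78.5 CPM in microglia 221, each above the rest of its group. AI662270 was low at 4.43 CPM in microglia 718, and Pvt1 was low at 2.99 CPM in MDM 431. The lipid-laden effect differed between MDM and microglia by a tested interaction for Gm2629 (2.20 on the log2 scale), Gm10134 (1.79) and Snhg15 (-1.11).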

How the results depend on the processing

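The number of called members in lipid-laden against other MDM was 6, and 3 without the low-count filter and 3 without all libraries numbered 221. It was higher under DESeq2, which also called Malat1, Dleu2 and Gm10790. Under limma-voom it was higher too: Dleu2, Gm10790 and Gm31718 were added and Snhg1 was lost. Between the lipid-laden groups the number called was 2, and 4 without the filter, 5 with DESeq2, 4 with limma-voom and 4 without number 221. For the difference of effects it was 3, and 1 without number 221. Leaving out 1 library at a time gave 0 to 0 called members for lipid load in microglia, 3 to 9 for lipid load in MDM, 8 to 17 for MDM against microglia, 2 to 4 between the lipid-laden groups and 1 to 3 for the difference. For lipid load in MDM the count was 3 without any of the 3 lipid-laden MDM libraries, and it was 9 without lipid-laden microglia 221. For MDM against microglia it was 8 without MDM 718. Between the lipid-laden groups it was 4 without lipid-laden microglia 221, and for the difference 1 without microglia 224 or lipid-laden MDM 224. With the library number as a replicate block the counts were 0, 4, 15, 3 and 3 in the same order. In lipid-laden against other MDM, Gm26532 (adjusted p by edgeR = 0.0598) and Snhg1 (adjusted p by edgeR = 0.0557) lost their calls with this block. Same-numbered libraries there correlated at 0.0272 to 0.123 and others at -0.0767 to 0.0559, so whether numbers pair those samples was not settled. Of 528 values of the 24 called results under all alternatives, 438 kept their call, 90 fell below the threshold and 0 changed sign. DESeq2 size factors in place of TMM changed none of the 24. Leaving out Malat1 lowered the members' share of counts to 0.131 to 0.172% by group. Listed transcripts overlapping ribosomal RNA repeats included 0 members. Depth limits the members with a group mean between 0 and 3 CPM (Gm10790, Gm26520 and Gm10605, all in MDM), where fold changes rest on few reads; the cause of the changes between settings was not tested.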
